A study of Mus musculus with 2 samples.

Results

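The genes described here are *Nrcam*, *Plxnb1*, *Cdh23*, *Adgrv1*, *Pard6g*, *Kank2*, *Esm1*, *Ceacam16* and *Dhh*, which act in cell adhesion, guidance or polarity or, in the case of *Dhh*, as a secreted signal. They were chosen by the measured difference itself, a lower signal on the array labelled RFF4 than on the control array, so their differences are given as a description and were not tested. They are 9 of 20887 named genes and have 10 of the 55679 gene probes measured on both arrays. The cells were TCRαβ+CD8αα+ intraepithelial lymphocytes (IELs), T cells that sit between the epithelial cells of the small intestine and carry CD8αα homodimers. They were sorted as negative for TCRγδ, CD4 and CD8β from C57BL/6 mice 8 to 12 weeks old, and material from male and female mice was pooled. The control sample came from mice with floxed *Rbpj* alleles (Rbpjf/f), and the RFF4 sample from mice that had the same floxed alleles together with CD4-Cre (CD4-Cre Rbpjf/f). Cre under the CD4 promoter acts in T cells, so *Rbpj* in other cells of the gut is not targeted. The study itself describes its controls as Rbpj+/+ mice with CD4-Cre and calls the other group Rbpj-/-, while the labels give floxed alleles and name no Cre for the controls, so it is not known from these sources whether Cre itself differs between the groups. RNA of each group was pooled over several isolations, 150 ng was labelled with Cy3, and each pool was hybridized to 1 array, so the 2 groups have no replicates, and neither a test nor an error between samples exists for any value.

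*Rbpj* encodes the DNA-binding protein through which Notch receptors switch on their target genes, and CD4-Cre was used to remove it from T cells. NrCAM and cadherin 23 are adhesion molecules of the cell surface, plexin B1 is a receptor for semaphorin guidance cues, and Par6 proteins hold the polarity complex at one side of a cell. These families are best known from axon growth, the hair cells of the inner ear and epithelia, where they set which cells touch and which way a cell faces.

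The targeted gene was examined first. The brighter *Rbpj* probe had a processed signal of 1979 ± 198 on the control array and 1101 ± 110 on the array labelled RFF4, where ± is the error that the scanner software gives for a single spot. After scaling, its level was 1.96 and 2.28, a log2 difference of 0.32, and the dimmer probe differed by 0.82. With this scaling the *Rbpj* signal was therefore not lower on the array labelled RFF4, while spike-in scaling put both probes lower, at -0.80 and -0.30. The position of these probes in relation to the floxed exons is not given in the sources used here. The arrays are named by their labels throughout, and every direction below rests on those labels.

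Levels are log2 of the background-subtracted signal minus the 75th percentile of that array, which was 8.99 on the control array and 7.82 on the array labelled RFF4. Differences are the RFF4 level minus the control level. Of 59305 gene spots on each array, 57.2% were well above background on the control array and 49.7% on the array labelled RFF4, by the test of the scanner software. Where a probe was not well above background on the dimmer array, the fold is only a bound, taken to the lowest level well above background there (-4.29 on the array labelled RFF4) or to its own level if that was higher. Such bounds hold for the scanner's background subtraction only, and the fold ranges given with measured differences cover spot error only. The values under normexp correction, with its added offset of 50, therefore stand beside each member. Probes spotted repeatedly on an array gave a technical SD of 0.16 for a log2 difference, or, among probes below a level of -3, an SD of 0.27 on each array. The 2 arrays shared a slide and a scan. In pooled RNA, fewer cells that express a gene and less RNA in each cell cannot be told apart.

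The stretches before the start sites are shown because RBPJ binds DNA at sites with the core TGGGAA, and because the members differ in base composition there. Promoter windows of RefSeq (assembly GRCm38.p6), 250 bases before to 50 after the annotated start, were at hand for 7 members, namely *Nrcam*, *Plxnb1*, *Cdh23*, *Adgrv1*, *Kank2*, *Esm1* and *Dhh*. Below are the 250 bases before the start of *Nrcam* (chr12:44328635-44328884, plus strand) and of *Esm1* (chr13:113209409-113209658, plus strand), with CG dinucleotides in capitals, and 30 bases after the start of *Plxnb1* (chr9:109095437-109095466, plus strand), with the match to the core in capitals.
Nrcam: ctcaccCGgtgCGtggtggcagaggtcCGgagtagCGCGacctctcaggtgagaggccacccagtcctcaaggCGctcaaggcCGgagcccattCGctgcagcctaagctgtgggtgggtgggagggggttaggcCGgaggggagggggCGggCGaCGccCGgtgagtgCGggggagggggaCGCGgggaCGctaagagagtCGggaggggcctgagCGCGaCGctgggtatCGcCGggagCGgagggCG
Esm1: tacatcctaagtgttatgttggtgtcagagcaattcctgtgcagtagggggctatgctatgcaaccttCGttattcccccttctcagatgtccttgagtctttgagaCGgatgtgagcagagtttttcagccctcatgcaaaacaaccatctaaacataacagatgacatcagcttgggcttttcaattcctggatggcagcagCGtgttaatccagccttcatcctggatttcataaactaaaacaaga
Plxnb1: ttgtctcctttgTTCCCAgcggaggcagcg
The *Nrcam* stretch holds 25 CG dinucleotides and the *Esm1* stretch 3. Over the whole window of 300 bases, G and C made up 74% in *Nrcam*, 74% in *Kank2* and 74.7% in *Plxnb1*, against 46.3% in *Esm1* and a median of 52.7% over all 32851 windows. The members thus span windows that are rich and poor in CG. TGGGAA was searched on both strands, as TGGGAA and TTCCCA. Among the 7 windows 1 held it, that of *Plxnb1*, where TTCCCA begins at base 14 of the transcript, and 25.6% of all windows held it. The longer form GTGGGAA, searched as GTGGGAA and TTCCCAC, was in 0 of the 7 and in 6.38% of all windows. A match is a description of the letters, and a window without a match tells nothing of sites elsewhere in the gene.

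All 9 members were well above background on the control array. On the array labelled RFF4, *Nrcam*, *Adgrv1*, *Pard6g*, *Kank2* and *Ceacam16* were also well above background and *Plxnb1*, *Cdh23*, *Esm1* and *Dhh* were not. Of the 14068 genes well above background on the control array, 1113 (7.91%) were not so on the array labelled RFF4. By the choice of members all 9 were more than 4-fold lower, with bounds counted at their bound, while 0.585% of the 13513 named genes with a difference were that much lower. All 9 were also past 5-fold, as were 0.348% of all genes in that direction. The median difference of the members was -2.72, or -2.81 over the 5 measured on both arrays, and the median over all genes was -0.01. With normexp background correction in place of the scanner's subtraction, 2 members were past 4-fold and 4 members past 2-fold, as were 34 and 482 of all genes in the lower direction. This is a setting that changes the background correction and adds an offset of 50 at the same time, so the part of each was not tested.

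**Figure D1:**
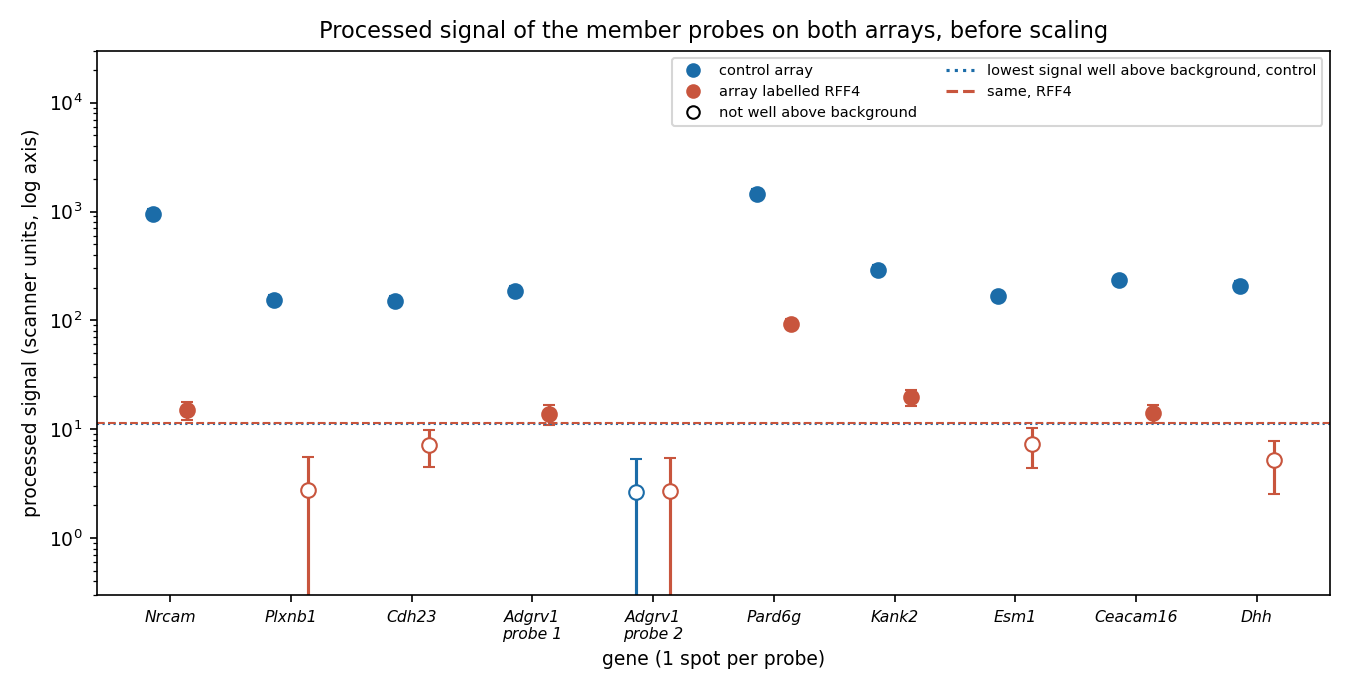
Processed signal (scanner units, log axis) of each member probe on the control array (blue) and on the array labelled RFF4 (red), before scaling, 1 spot per probe. Bars are the error given by the scanner software and run off the axis where the error is as large as the signal, open points were not well above background, and the lines mark the lowest signal well above background on each array (11.2 and 11.5). The control signals, by the brighter probe for *Adgrv1*, lie between 151 and 1462, while on the array labelled RFF4 all but *Pard6g* (92.5) lie at 19.7 or lower.

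*Nrcam*, which encodes an adhesion molecule of the L1 family that binds like molecules on neighbouring cells, had the lowest difference among the 12955 genes measured on both arrays with this scaling. Its probe read 957 ± 95.7 on the control array and 15 ± 2.95 on the array labelled RFF4. The level went from 0.91 to -3.91, a difference of -4.82 or 28.3-fold lower, and the spot errors of both arrays give a range of 22.7- to 35.3-fold. The RFF4 spot was well above background, but its raw median signal of 51 stood beside a local background of 34, so that the remaining signal is small. With normexp correction *Nrcam* was 6.42-fold lower (-2.68). The next gene in that order was *Heyl*, a classical Notch target, at -3.80. The related *L1cam* was higher by 0.82, and no difference could be given for *Nfasc*, a relative of *Nrcam*, whose bound was under 1-fold. *Ank3*, whose product ties L1 family molecules to the cytoskeleton, was not well above background on either array. Of 11 other L1 family and partner genes, 2 had a difference and 0 were more than 2-fold lower.

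*Plxnb1* encodes a receptor for class 4 semaphorins that acts on small GTPases. Its signal was 155 ± 15.7 on the control array and 2.78 ± 2.81 on the array labelled RFF4, where the error was as large as the signal and the spot was not well above background. The level on the control array was -1.72, and the difference was at least 5.95-fold lower (-2.57). The raw median of the RFF4 spot, 42.5, equalled its local background of 42.5. With normexp correction *Plxnb1* was 1.58-fold lower (-0.66), short of 2-fold. *Plxnb2*, a close relative, was 3.01-fold higher (1.59). *Sema4d*, the ligand of plexin B1 on T cells, was well above background on both arrays with a difference of 0.43, and *Arhgef12*, an effector of plexin B receptors, differed by -0.31. Of the 13 other plexin, neuropilin and effector genes with a difference, 4 were more than 2-fold higher, *Erbb2* the most at 1.63, and 0 were lower by that much.

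*Cdh23* and *Adgrv1* encode very large surface proteins of the Usher complexes, which join the stereocilia of hair cells. *Cdh23* had a signal of 151 ± 15.3 on the control array and 7.13 ± 2.62 on the array labelled RFF4, where it was not well above background. From a control level of -1.75 it was at least 5.83-fold lower (-2.54), and as a bound this value has no place in an order with measured differences. With normexp correction it was 1.6-fold lower (-0.68). *Adgrv1*, an adhesion G protein-coupled receptor, had 2 probes for the same transcript. Its brighter probe read 187 ± 18.8 and 13.7 ± 2.83, well above background on both arrays, at levels of -1.45 and -4.04. The difference was -2.59 or 6.03-fold lower, the smallest of the 5 measured on both arrays, with a range of 4.8- to 7.59-fold from the spot errors. The other *Adgrv1* probe read 2.67 ± 2.67 and 2.7 ± 2.71 and was not well above background on either array, so it gave no difference. The *Adgrv1* result therefore rests on 1 of 2 probes. The mean of both probes differed by -0.70, but it takes in the probe at background and is no measured difference. With normexp correction the brighter probe was 1.77-fold lower (-0.82).

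The partners of these proteins did not share differences of that size. *Pcdh15*, which pairs with cadherin 23 in the tip link, differed by 0.19 at levels near background, and 5 of its 6 probes gave no difference. *Ush1c*, the scaffold harmonin, was 3.15-fold higher (1.65), and *Whrn*, the scaffold whirlin that binds ADGRV1, differed by -0.55. Of 17 other cadherins with a difference, 7 were more than 2-fold higher and 1 was lower by that much. The cadherin with the lowest value was *Cdh15*, at least 3.3-fold lower (-1.72) but at -0.03 with normexp correction, and the one with the highest was *Dsg2*, a desmosomal cadherin of epithelia, 3.4-fold higher (1.77). Of 13 other adhesion G protein-coupled receptors with a difference, 4 were more than 2-fold higher and 2 lower by that much, from *Adgrb1* at -1.52 to *Adgre5* at 2.20. The *Adgrb1* value was -0.02 with normexp correction. It turned to 0.31 with the mean of its probes, which takes in a probe not well above background on either array.

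*Pard6g* encodes a Par6 protein, the adaptor that joins Cdc42 and atypical protein kinase C in the Par polarity complex. Its spot stood clear of background on the array labelled RFF4 too, with a raw median of 123 beside a local background of 35. Its signal was 1462 ± 146 on the control array and 92.5 ± 9.69 on the array labelled RFF4. The level went from 1.52 to -1.29, a difference of -2.81 or 7.02-fold lower, with the narrowest range among the members, 6.08- to 8.12-fold. With normexp correction it was 4.55-fold lower (-2.18). The other Par6 genes differed less, *Pard6a* by -0.18 and *Pard6b* by 0.89, and so did the kinases *Prkci* (-0.14) and *Prkcz* (0.13). Of 23 other polarity genes with a difference, 2 were more than 2-fold lower, with *Scrib*, a basolateral scaffold, lowest at -1.34, and 1 was more than 2-fold higher, *Pard3* at 1.50, whose 4 probes all differed by 1.40 or more.

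*Kank2* encodes a protein that binds talin and links integrin adhesions to the microtubules of the cell cortex. Its signal was 292 ± 29.3 on the control array and 19.7 ± 3.29 on the array labelled RFF4, well above background on both. The level went from -0.80 to -3.53, a difference of -2.72 or 6.6-fold lower, with a range of 5.43- to 8.02-fold. With normexp correction it was 2.23-fold lower (-1.15). *Kank1*, with levels of -3.75 and -3.72, differed by 0.03, *Kank3* by 0.15, and *Tln1*, which encodes talin 1, by 0.05. Of 10 other genes of the KANK and cortical list with a difference, 2 were more than 2-fold lower, the lowest *Erc1* at -1.85, and 1 more than 2-fold higher, *Kif21a* at 1.04 (0.77 with normexp correction). Among the non-member genes of the lists measured on both arrays *Erc1* had the lowest value. Its probes well above background on both arrays differed in direction (-1.85 and 0.64). The mean of all its probes was 0.00, but it takes in a probe not well above background on either array.

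The secreted members were dim on the array labelled RFF4. *Esm1* encodes endocan, a proteoglycan best known from endothelial cells that binds the integrin LFA-1. Its signal was 167 ± 16.9 on the control array and 7.36 ± 2.94 on the array labelled RFF4, where it was not well above background. From a control level of -1.61 it was at least 6.43-fold lower (-2.68), and with normexp correction 1.56-fold lower (-0.64). Of the LFA-1 subunit genes, *Itgal* was 5.03-fold higher (2.33, and 2.28 for its other probe) and *Itgb2* differed by 0.40. Their ligand gene *Icam1* differed by -0.09.

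*Ceacam16* encodes a secreted protein of the tectorial membrane in the inner ear. It read 233 ± 23.4 and 14 ± 2.72, well above background on both arrays, at levels of -1.13 and -4.01. The difference was -2.89 or 7.39-fold lower, with a range of 5.94- to 9.19-fold. With normexp correction it was 2.28-fold lower (-1.19). The raw median on the array labelled RFF4 was 54 beside a local background of 45. *Tecta*, whose product ceacam16 joins in the tectorial membrane, was not well above background on either array. Of the 16 other genes of the CEACAM and tectorial membrane list on the array, 10 were not well above background on either array. *Ceacam2* was 4.02-fold higher (2.01) and *Ceacam20* 5.96-fold higher (2.57), and of the 6 genes with a difference 3 were more than 2-fold higher and 0 lower by that much.

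*Dhh* encodes desert hedgehog, a secreted ligand known from Schwann cells and the testis. Its signal was 207 ± 20.8 on the control array and 5.19 ± 2.65 on the array labelled RFF4, where it was not well above background. From a control level of -1.30 it was at least 7.95-fold lower (-2.99), the largest of the 4 bounds, and with normexp correction 1.84-fold lower (-0.88). The receptor gene *Ptch1*, itself a hedgehog target, differed by 0.09, the transducer gene *Smo* by 1.05, and the target *Gli1* was not well above background on either array. *Smo* differed by -0.07 on spike-in scaling and by 0.90 with normexp correction. *Ihh*, another hedgehog ligand and one made by gut epithelium, was 2.67-fold higher (1.42). Of 11 other hedgehog pathway genes with a difference, 2 were more than 2-fold higher and 0 lower by that much.

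**Figure D2:**
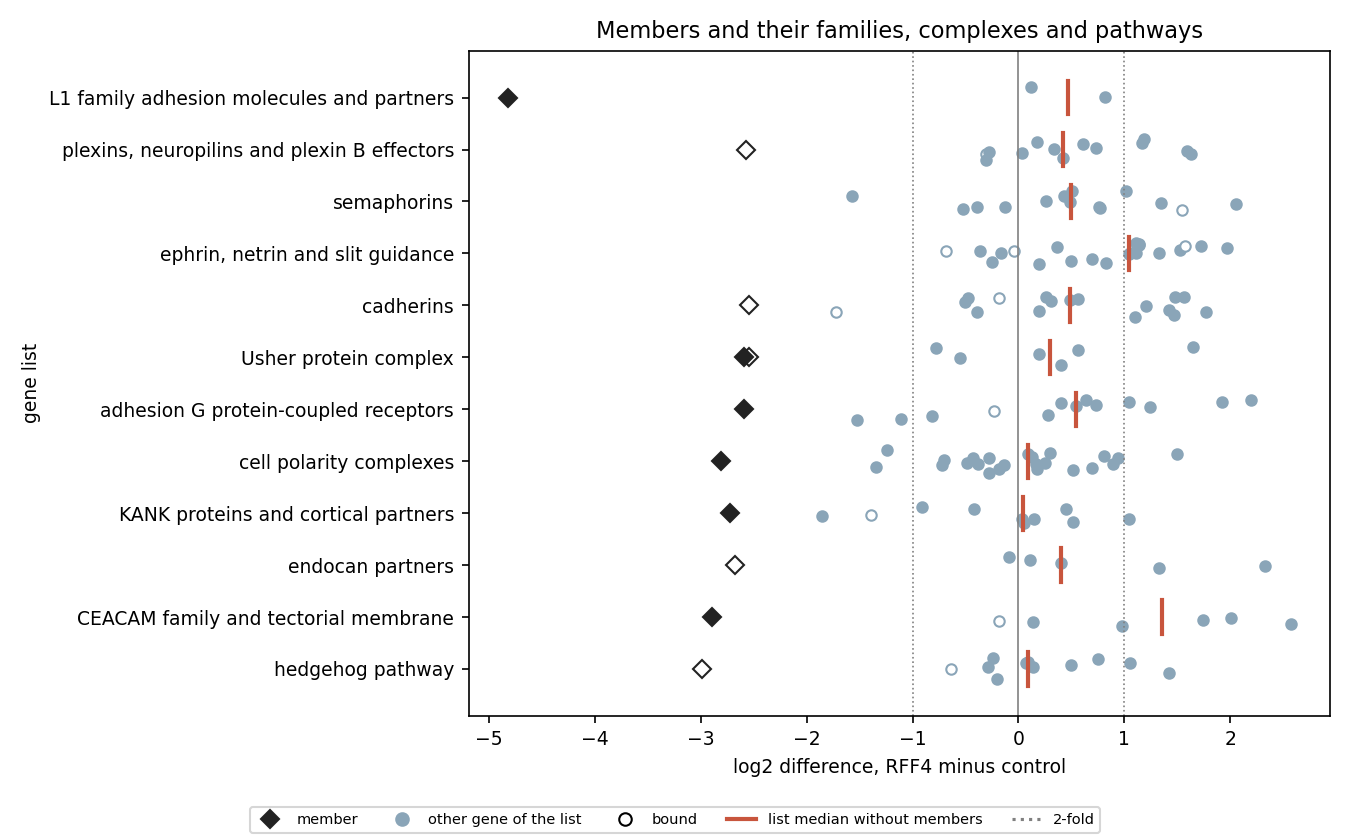
Log2 differences (RFF4 minus control, horizontal axis) of the members (diamonds) and of the other genes of their families, complexes and pathways (circles), 1 row per list, with the list median without members as a red bar and bounds as open symbols. Members lie at -2.54 or lower, and the other 140 genes with a difference lie between -1.85 and 2.57.

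Over the 12 lists, 260 genes other than members were listed, and 140 of them had a difference. Among these, 8 (5.71%, beside 5.05% of all genes) were lower by more than 2-fold, 0 by more than 4-fold, and 40 (28.6%, beside 12.3% of all genes) were higher by more than 2-fold. The median was 0.40, and -0.01 over all genes. Since the members were picked from such genes for their low values and left out of these counts, the contrast between them and the lists follows from the choice and nothing is read from it. These counts depend on the scaling. Scaling on the spike-in controls moved the median of all genes measured on both arrays by -1.12, and then 52 of the list genes were past 2-fold in the lower and 3 in the higher direction, while the members ranged from -3.67 to -5.95. Spike-in scaling moves every difference by the same amount, so a gene above that is higher by less than 1.12 turns to lower, as do 11 of the 12 list medians. Among such genes are *L1cam*, *Kank3*, *Itgb2* and *Sema4d*.

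The members measured on both arrays stood close to their neighbours in the order of the 12955 genes so measured, apart from *Nrcam*. *Ceacam16* stood at place 13, 0.111 above *Atp8a2* and directly before *Pard6g* at place 14, which was followed by *Gcnt2* (-2.79). *Kank2* stood at place 17 between *Ddx43* (-2.76) and *F12* (-2.71), and *Adgrv1* at place 21 between *Klrh1* (-2.62) and *Abcb1a* (-2.54). The gaps between these neighbours, from 0.012 to 0.111, are under the technical SD of 0.16, so their order is not resolved. *Nrcam* was 1.026 below *Heyl*.

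**Figure D3:**
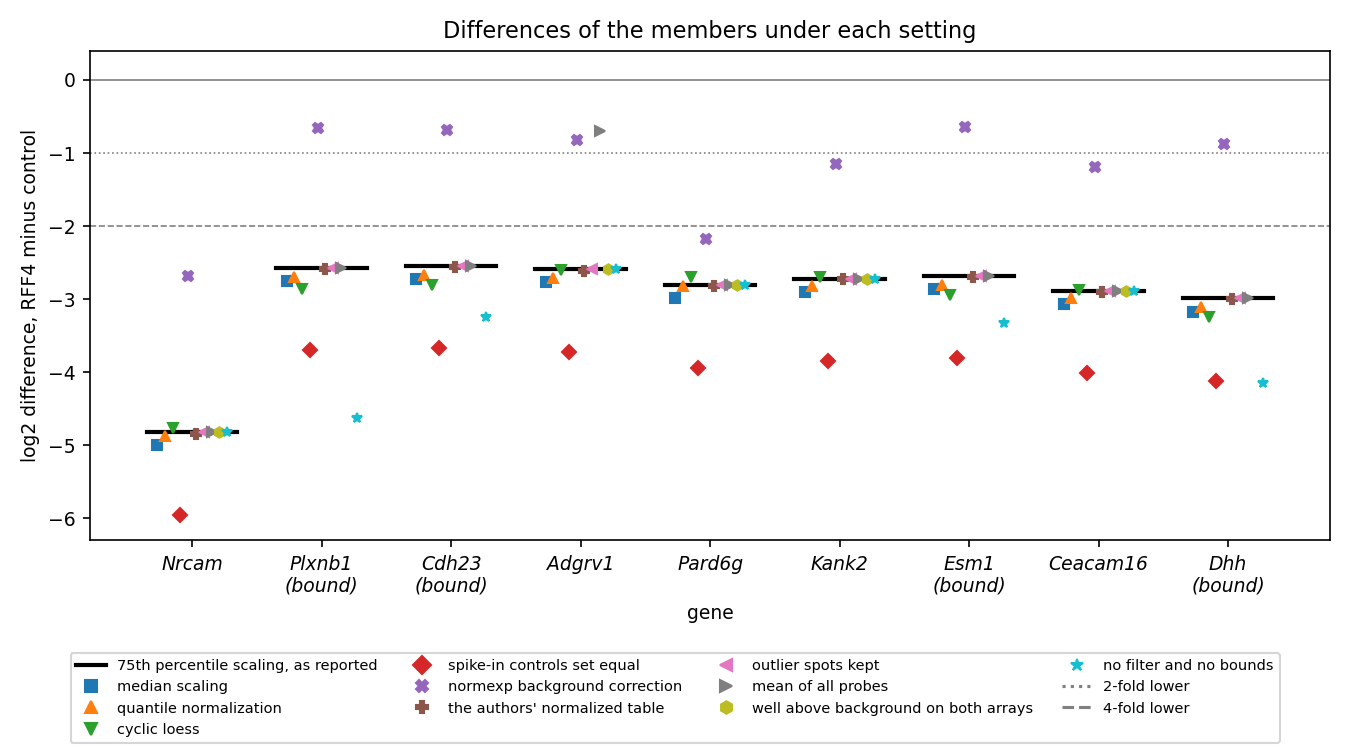
Log2 difference (RFF4 minus control) of each member under 75th percentile scaling as reported (black bar) and under the alternative settings (symbols), with 2-fold and 4-fold lower as grey lines. Every symbol lies below 0, which for the bounds of *Plxnb1*, *Cdh23*, *Esm1* and *Dhh* follows from their definition. Normexp correction gives the values nearest to 0 for 8 members. For *Adgrv1* the mean of both probes does, at -0.70, and this mean takes in a probe not well above background on either array.

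Markers of the sorted cells and of other cells were compared on the same scale. Of 12 IEL markers, 10 were matched to a named gene and all 10 were well above background on both arrays, with a median difference of 0.35 and a summed level on the linear scale of 2.48e+03 on the control array and 3.43e+03 on the array labelled RFF4. Of markers of T cells outside the gate, *Cd4* was at 1.67 and 1.80, *Cd8b1* was well above background on the control array alone, and *Trdc* was not matched to a named gene. All 12 epithelial markers were higher on the array labelled RFF4, with a median of 1.55 and a summed level of 207 and 627. The summed level of macrophage and dendritic cell markers was 56.2 and 132 (11 of 12 matched, all 11 higher, with a median of 2.42). Its control sum was set mostly by *Itgax* (level of 5.52), which differed by 0.20, so the sums rose less than the median. The summed level of B and plasma cell markers was 26.3 and 58 (4 of 7 well above background on each array, with *Cd79a* and *Pax5* among those that were not). The summed levels of these lists were thus higher on the array where the members were lower, with 75th percentile scaling. With spike-in scaling, epithelial markers below 1.12, such as *Cdh1* (0.31) and *Epcam* (0.40), turn to lower. Several of the raised list genes, such as *Ush1c*, *Ihh* and *Dsg2*, are known from gut epithelium, and the part of the epithelial signal in their values was not tested.

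Markers of cell types in which some members are best known were mostly not above background or mixed in direction. Of 10 endothelial markers, which bear on *Esm1*, 3 were well above background on each array, *Pecam1* (-1.03), *Kdr* (1.33) and *Egfl7* (0.64), while *Cdh5*, *Tek*, *Tie1*, *Vwf*, *Cldn5*, *Emcn* and *Robo4* were not on either, and the summed level, set mostly by *Kdr* (levels of 2.26 and 3.59), was 5.51 and 12.6. Of 10 markers of neurons and glia, which bear on *Nrcam* and *Dhh*, 7 were well above background on the control array and 3 on the array labelled RFF4. *Ret* was at least 3.67-fold lower, *S100b* and *Uchl1* were not well above background on either array, and the summed level, set mostly by *Snap25*, was 16.8 and 30.4. Of 10 fibroblast and smooth muscle markers, 5 and 4 were well above background, with a summed level of 0.788 and 1.82, and *Lum*, *Pdgfra*, *Pdgfrb*, *Myh11* and *Des* were on neither. The part of such cells in the differences of the members was not tested.

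**Figure D4:**
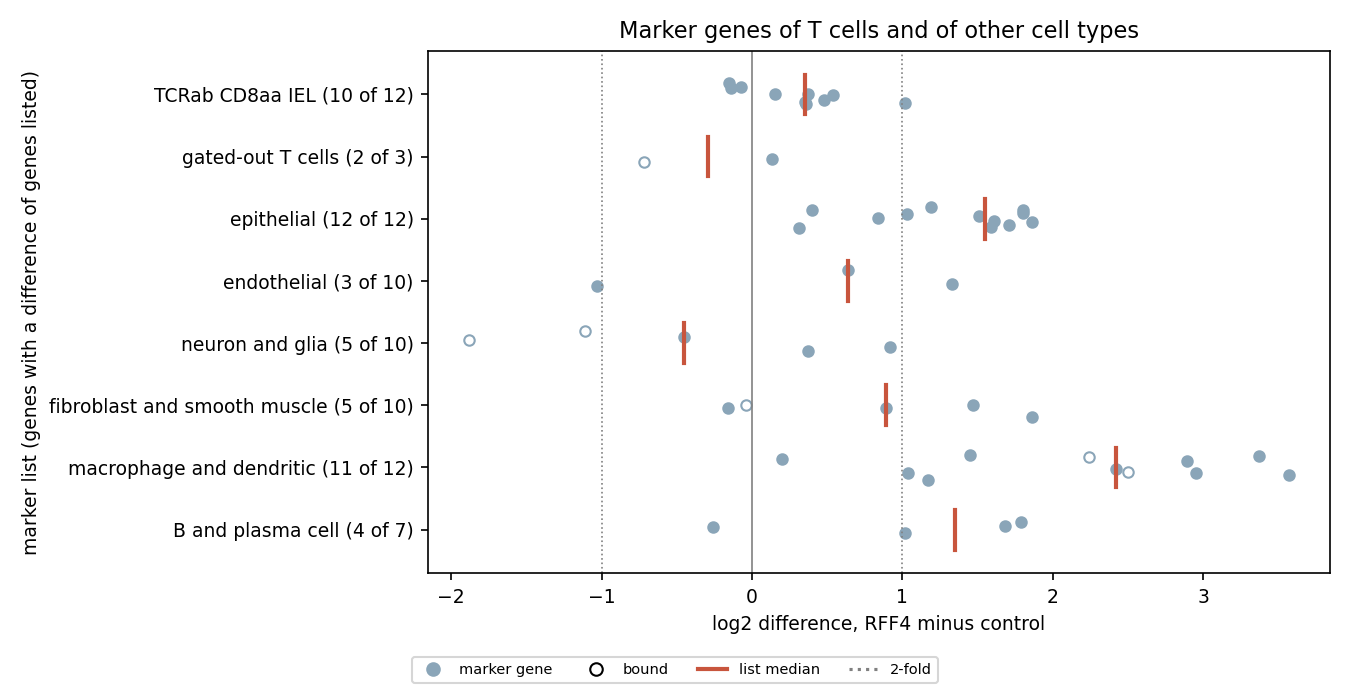
Log2 differences (RFF4 minus control, horizontal axis) of marker genes, 1 row per cell type, with open circles for bounds and red bars for list medians. With 75th percentile scaling all epithelial and all macrophage and dendritic markers with a difference lie above 0 (spike-in scaling moves every point by -1.12), and the IEL markers lie between -0.15 and 1.02.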

How the data were processed

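RNA of 2 pooled samples, 1 per group, was measured on 1-color Agilent mouse arrays. The deposited intensity values are those of the scanner program, Agilent Feature Extraction 10.7.1.1, which took the background off each spot's signal per the file headers. They are linear and the arrays are not scaled to each other. The deposited normalized table, made by the authors with GeneSpring at settings not given in the sources used here, holds log2 values centered per probe and was used as an alternative. Array depth cannot be counted, and the single array per group limits the precision.

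From the scanner signals, log2 was taken and the 75th percentile over gene spots was subtracted. Spots of controls and outliers were dropped and the remaining spots of a probe averaged. A probe counted as well above background where 50% or more of its spots did. Of 29150 probes with a RefSeq accession, 27509 were matched to symbols of GRCm38.p6. The probe with the highest mean level stood for a gene. Bounds below 1-fold (711 genes) gave no difference.

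Members and gene lists were chosen with earlier results of these data known. The text names the members, *Rbpj*, partners set for each member, the lowest and highest gene past 2-fold in each list, neighbours in the order of differences, markers, and *L1cam*, *Plxnb2*, *Kank3*, *Ceacam2* and *Icam1*, which were chosen after their values were seen. The 10 alternatives were median scaling, quantile normalization, cyclic loess, spike-in scaling (8 probes, known from an earlier analysis), normexp with an offset of 50, the authors' table, the mean of probes, both filters on dim probes, and outlier spots kept. Values of a few listed genes are not reported here. The steps were tested on simulated data. Python 3.11.15 (numpy 2.4.6, pandas 2.3.3, matplotlib 3.10.9) and R 4.3.3 (limma 3.58.1) were used.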

Additional observations from a re-analysis of the deposited data

How the results depend on the processing

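No member changed sign under any of the 10 alternatives that gave it a value. The members were chosen for low values, and bounds such as theirs are kept only where they lie below 0. In the settings with bounds the sign of *Plxnb1*, *Cdh23*, *Esm1* and *Dhh* thus follows from the definition, and nothing is read from it. Quantile normalization, the authors' table and outlier spots kept moved no member by as much as the technical SD of 0.16. Median scaling, which moved the median of all genes measured on both arrays by -0.17, gave -5.00 for *Nrcam*, -2.75 for *Plxnb1*, -2.72 for *Cdh23*, -2.77 for *Adgrv1*, -2.99 for *Pard6g*, -2.90 for *Kank2*, -2.86 for *Esm1*, -3.06 for *Ceacam16* and -3.17 for *Dhh*, a member median of -2.90, a median of 0.23 over the list genes, and 1087 of all genes more than 2-fold lower. Cyclic loess gave -2.86 for *Plxnb1*, -2.80 for *Cdh23*, -2.94 for *Esm1* and -3.25 for *Dhh*. With the spike-in controls set equal (median of all genes measured on both arrays moved by -1.12), the values were -5.95 for *Nrcam*, -3.70 for *Plxnb1*, -3.67 for *Cdh23*, -3.72 for *Adgrv1*, -3.94 for *Pard6g*, -3.85 for *Kank2*, -3.81 for *Esm1*, -4.01 for *Ceacam16* and -4.12 for *Dhh*, and the member median was -3.85. With that scaling 948 of all genes were past 4-fold and 8092 past 2-fold in the lower direction, as were 52 list genes past 2-fold, 3 list genes were past 2-fold in the higher direction, and the list genes had a median of -0.72. Of the 12 list medians 11 then turned below 0, from -0.09 for ephrin, netrin and slit guidance to -1.08 for the KANK list, and the CEACAM median was 0.24. Of 30 named genes that are not members 11 changed sign, among them *Kif21a* at -0.09 and *Smo* at -0.07.

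Normexp adds 50 to every corrected signal on both arrays, which by construction weighs most on dim signals. It also changes the background correction, and the part of each was not tested. Normexp moved the median of all genes measured on both arrays by -0.12. It gave -2.68 for *Nrcam*, -0.66 for *Plxnb1*, -0.68 for *Cdh23*, -0.82 for *Adgrv1*, -2.18 for *Pard6g*, -1.15 for *Kank2*, -0.64 for *Esm1*, -1.19 for *Ceacam16* and -0.88 for *Dhh*. The member median was then -0.88, with 2 members past 4-fold and 4 past 2-fold, 34 of all genes past 4-fold in the lower direction against 79 as reported, and 4 list genes more than 2-fold lower. The mean of all probes gave -0.70 for *Adgrv1* and turned *Adgrb1* to 0.31 and *Erc1* to 0.00. Each of these means takes in a probe not well above background on either array, so they are no measured differences. Keeping only genes well above background on both arrays left 5 members, of which 5 were past 4-fold and 5 past 2-fold. This follows from the choice of members. Of the 12955 genes so measured, 59 were more than 4-fold and 583 more than 2-fold lower. With no filter and no bounds, *Plxnb1* was at -4.63, *Cdh23* at -3.24, *Esm1* at -3.33 and *Dhh* at -4.15, the member median was -3.24, 154 of all genes were more than 4-fold lower, 108 list genes were more than 2-fold higher and the median of the list genes was 0.72. Of 419 other recomputed values, 282 stayed within the technical SD. Counted at any size, 40 of the 419 changed sign.

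No paired analysis was possible because each group has 1 array, and leaving an array out leaves no comparison. The limit of the members is signal over background, since on the array labelled RFF4 the signal of 4 members was not well above it and that of *Nrcam*, *Adgrv1*, *Kank2* and *Ceacam16* was 4.85 to 5.97 times the spot error.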

Other observations

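Guidance genes outside the members are given here with 75th percentile scaling, with which 12.3% of all genes were more than 2-fold higher and 5.05% more than 2-fold lower. Of 38 genes of ephrin, netrin and slit guidance, 21 had a difference, 11 were more than 2-fold higher and 0 lower by that much, with a median of 1.04 and the highest value for *Unc5b*, a netrin receptor, 3.91-fold higher (1.97) from a level of -4.20, and at 1.22 with normexp correction. With the spike-in controls set equal this median was -0.09, so the direction depends on the scaling. Of 20 semaphorins, 14 had a difference, 4 were more than 2-fold higher and 1 was lower by that much. *Sema6b* was 2.97-fold lower (-1.57), though at -0.54 with normexp correction, and *Sema4a*, a semaphorin of immune cells, 4.14-fold higher (2.05). With the spike-in controls set equal, the semaphorin median went from 0.50 to -0.62 and *Sema4a* to 0.92, so this list too depends on the scaling. On the same arrays the summed level of the epithelial markers was 207 and 627, and that of the macrophage and dendritic cell markers 56.2 and 132, with 7 of the 11 matched more than 4-fold higher. The part of either in these values was not tested.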
